A study of Homo sapiens with 6 samples.

Results

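The levels of 10 genes of the epidermal growth factor receptor (EGFR) pathway were compared in RNA of HCT116 cells with and without a substitution in the ribosome factor eIF6, out of 59251 genes listed and 14808 tested. They were chosen by symbol and comprise 4 ligands of the EGF family (AREG, EREG, TGFA, HBEGF), 3 ERBB receptors (EGFR, ERBB2, ERBB3) and 3 feedback inhibitors of ERK signalling (DUSP6, SPRY4, SPRED1). All 10 passed the low-count filter. HCT116 is a human colorectal carcinoma line. The mutant group (MUT, 3 libraries) was homozygous for eIF6 N106S introduced by CRISPR/Cas9, and the wild-type group (WT, 3 libraries) was HCT116 without that edit; both grew in the same serum-containing medium without a further agent and were harvested at 60 to 70% density. The labels speak of mutant clones but do not say whether the replicates were separate clones or cultures, so each p-value reflects the variation among these libraries alone, part or all of which could be technical.

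EGF family ligands are made as membrane-bound precursors and are cut loose by metalloproteases of the ADAM family. AREG, TGFA and EGF bind EGFR, while EREG, HBEGF and betacellulin also bind ERBB4. ERBB2 has no known ligand of its own, and ERBB3 has little kinase activity; both signal as partners in receptor pairs. Activated receptors recruit adaptors that switch on RAS, RAF, MEK and ERK, and ERK activity in turn induces DUSP6, a phosphatase of ERK, and the Sprouty and Spred proteins, which dampen the step from receptor to RAF. In colorectal tumours AREG and EREG levels are studied as markers of response to antibodies against EGFR.

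Total expected counts ranged from 53986494 to 80146608 in MUT libraries and from 63951768 to 87656970 in WT libraries. Without the abundant 7SL, 7SK, RPPH1 and RMRP RNAs, the remaining counts per library ranged from 10252501 to 21984081. MUT replicate 2 stood apart, with 62.7% of its counts on these abundant RNAs, against 80.9% and 79.45% in the other MUT libraries. In WT this share ran from 74.33% to 83.97%. MUT replicate 2 also had 3.91% of its counts on ribosomal RNA entries, against 0.0891% and 0.139% in the other MUT libraries. In WT the ribosomal RNA share was 1.16% in replicate 1 and at most 0.234% in the others. The TMM factors, which scale the library sizes, were 0.937, 1.677 and 1.106 in MUT and 0.788, 1.08 and 0.676 in WT. The epithelial markers KRT8, KRT18 and KRT19 were each at least 113.7 CPM (counts relative to the TMM-scaled library size) in every library, and VIL1 was at most 0.0616 CPM. KRT8 was higher in MUT without overlap (146.5 to 151.2 CPM, against 114.9 to 126.8 CPM in WT), EPCAM was lower (7.11 to 8.24 CPM, against 9.12 to 9.83 CPM in WT), and E-cadherin (CDH1) was low and lower still in MUT (0.235 to 0.413 CPM, against 0.468 to 0.856 CPM in WT). Of the 6 epithelial markers tested, these 3 had an unadjusted p below 0.05 in edgeR's test, beside 19.6% of all tested genes. The same 3 were those without overlap, beside 26.1% of all tested genes. None of the 6 was called at an adjusted p below 0.05, beside 1.91% of all tested genes. The part of these markers in the members' values was not tested. Of 10 markers of other cell types, 9 did not pass the filter, and PTPRC and CD3E had 0 counts in every library. The list's summed level ran from 0.721 to 1.08 CPM in MUT and from 0.348 to 0.741 CPM in WT. Most of it was COL1A1, the marker that passed, at 0.812, 0.852 and 0.620 CPM in MUT and 0.275, 0.494 and 0.671 CPM in WT. COL1A1 was not called (log2 fold change 0.70, SE 0.34, edgeR adjusted p = 0.304). EIF6 itself was at 36.7, 30.7 and 35.7 CPM in MUT and at 43.3, 47.9 and 47.4 CPM in WT (log2 fold change -0.43, SE 0.12, edgeR adjusted p = 0.11), and since the edit changes an amino acid, this level does not check the genotype.

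AREG (amphiregulin) was the member that stood apart between the groups. Its mRNA was 1.87-fold higher in MUT, whereas EREG (epiregulin), its neighbour on chromosome 4, had nearly equal means in both groups. Among the other members, no receptor and no feedback gene was among the genes called in the fit across all genes. The members were put forward with this comparison's results known, so their fold changes and p-values are descriptions and no test of the members. In that fit 283 of 14808 genes were called at an adjusted p below 0.05 by edgeR's quasi-likelihood test, 1.91% of those tested, with 146 (0.986%) higher and 137 (0.925%) lower in MUT. Of the 10 members 1 was called, in the higher direction. By library size alone 95 of 108 called genes were higher, and on the log2(TPM + 1) scale 15 of 21.

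AREG and EREG lie head to tail on the plus strand of chromosome 4 (GRCh38.p14), AREG at 74445136 to 74455005 and EREG at 74365145 to 74388749, with 56386 bases between them. The 250 bases before each RefSeq transcription start are shown because these neighbouring ligand genes had log2 fold changes of 0.90 and -0.02, and capitals mark matches to the motifs searched.
AREG promoter, chr4:74444886-74445135, plus strand: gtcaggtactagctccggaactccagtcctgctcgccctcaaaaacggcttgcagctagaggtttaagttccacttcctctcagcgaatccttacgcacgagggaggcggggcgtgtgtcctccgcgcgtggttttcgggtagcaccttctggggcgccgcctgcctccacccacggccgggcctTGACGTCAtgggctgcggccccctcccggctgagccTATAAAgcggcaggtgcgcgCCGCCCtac
EREG promoter, chr4:74364895-74365144, plus strand: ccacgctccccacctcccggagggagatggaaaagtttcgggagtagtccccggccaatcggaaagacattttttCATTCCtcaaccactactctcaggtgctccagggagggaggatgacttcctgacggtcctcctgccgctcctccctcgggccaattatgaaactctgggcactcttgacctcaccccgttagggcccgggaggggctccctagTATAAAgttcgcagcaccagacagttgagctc
The motifs searched, on both strands, were the cAMP response element TGACGTCA, the AP-1 site TGANTCA, the TEAD site GGAATG, the SP/KLF site GGGCGG, the ETS site CCGGAAGT and the TATA sequence TATAAA. The AREG window held the cAMP response element, beginning 65 bases before the start, a TATA sequence at 29 bases and an SP/KLF match on the minus strand at 9 bases. The EREG window held a TATA sequence at 32 bases and a TEAD match on the minus strand at 175 bases. No 2 of these matches overlapped. Over 35116 RefSeq promoter windows of the same length, TGACGTCA occurred in 1.65%, TATAAA in 10.7%, GGAATG in 11.9% and GGGCGG in 42.6%. RefSeq promoters were found for 9 of the 10 members, and among those 9 the full cAMP response element occurred in the AREG window alone. These matches describe letters and show no binding.

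The other members are spread over the genome. TGFA lies on chromosome 2 at 70447284 to 70553826, HBEGF on chromosome 5 at 140332843 to 140346603 and SPRY4 on the same chromosome at 142310430 to 142325021. EGFR lies on chromosome 7 at 55019017 to 55211628 and ERBB2 on chromosome 17 at 39688094 to 39728658. ERBB3 and DUSP6 lie on chromosome 12, at 56080108 to 56103505 and at 89347235 to 89352501, and SPRED1 on chromosome 15 at 38252836 to 38357249.

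AREG was at 32.8, 37.5 and 31.0 CPM in the MUT libraries, against 19.8, 19.1 and 15.4 CPM in the WT libraries. All 3 MUT values lay above all 3 WT values. In bulk RNA, more cells with a transcript and more transcript per cell cannot be told apart. The means were 33.8 ± 3.36 CPM in MUT and 18.1 ± 2.33 CPM in WT (SD, n = 3 each), a log2 fold change of 0.90 (SE 0.14, 95% interval 0.58 to 1.22). The adjusted p in edgeR's fit across all genes was 0.0199. These levels rest on 2465, 3655 and 1851 expected counts in MUT and 1364, 1431 and 667 in WT. Without MUT replicate 2 the log2 fold change was 0.84 (edgeR adjusted p = 0.0119), and without both MUT replicate 2 and WT replicate 1 it was 0.90 (adjusted p = 0.00773). Leaving out any other single library ended the call: the adjusted p in edgeR's test was 0.0774 without MUT replicate 1, 0.0722 without MUT replicate 3, 0.097 without WT replicate 1, 0.0981 without WT replicate 2 and 0.087 without WT replicate 3, with log2 fold changes between 0.81 and 0.98.

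EREG was at 29.5, 22.3 and 24.3 CPM in MUT, against 30.7, 23.6 and 22.7 CPM in WT. The groups overlapped fully, with the highest value of each group in replicate 1. The log2 fold change was -0.02 (SE 0.16), with a 95% interval from -0.38 to 0.35, and it lay between -0.14 and 0.15 with 1 library left out and at 0.24 without both MUT replicate 2 and WT replicate 1. A lncRNA that overlaps EREG in RefSeq, LOC105377276, had 265 counts in all, against 10696 for EREG. It was not called either (log2 fold change -0.29, SE 0.36, edgeR adjusted p = 0.727).

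The ratio of the 2 ligands within a library does not depend on how libraries are scaled against each other. AREG counts were 1.11, 1.69 and 1.28 times EREG counts in MUT, against 0.644, 0.811 and 0.681 times in WT. The AREG to EREG count ratio was thus above 1 in every MUT library and below 1 in every WT library, with means of 1.36 ± 0.295 in MUT and 0.712 ± 0.0878 in WT (SD, n = 3 each). Counts do not allow for transcript length, so this crossing of 1 is no change of the more abundant ligand. The ratio of TPM was 4.36, 6.59 and 5.00 in MUT and 2.52, 3.19 and 2.655 in WT, above 1 in every library. The ratio was highest in MUT replicate 2. Set against DUSP6, AREG counts were 3.85, 5.00 and 3.69 times as high in MUT and 1.997, 2.45 and 2.44 times as high in WT, again without overlap. Across all tested genes, the CPM of the groups did not overlap for 26.1%, 12.8% with MUT higher and 13.4% with MUT lower. That share is for single genes, and none was computed for ratios of genes. Both ratios contain AREG, so they add no support separate from its own level.

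**Figure D1:**
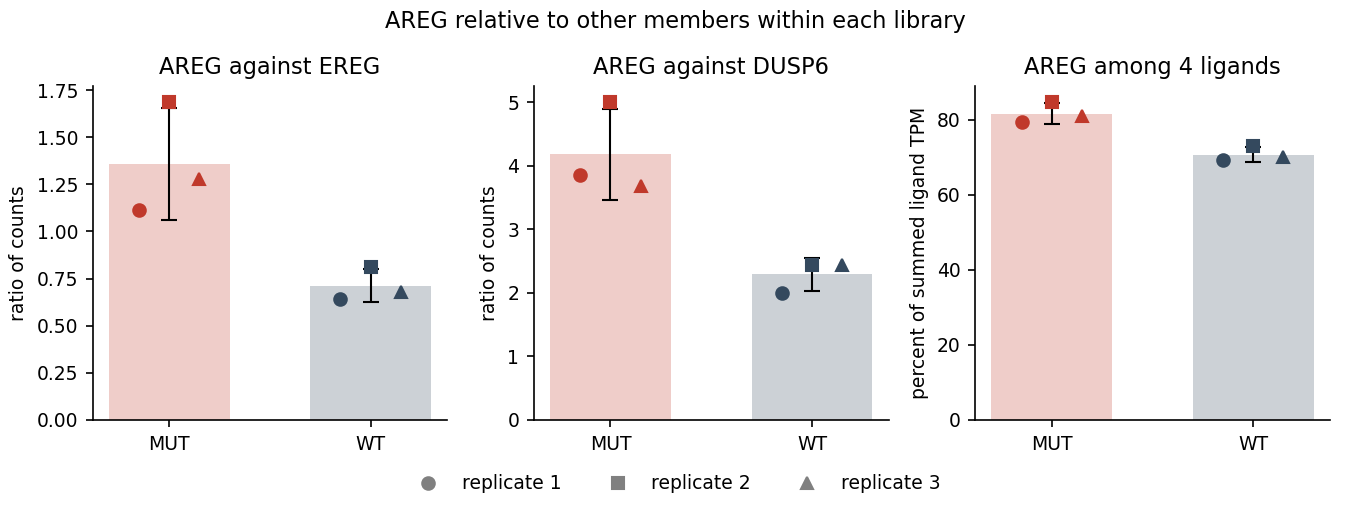
Ratio of AREG to EREG counts, ratio of AREG to DUSP6 counts, and AREG's percent of the summed TPM of the 4 ligands, in each library (points, marked by replicate), with means (bars) and SD (n = 3 each), MUT left and WT right. In each panel the 3 MUT libraries lie above the 3 WT libraries; the AREG to EREG ratio is 1.11 to 1.69 in MUT and 0.644 to 0.811 in WT.

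TGFA (transforming growth factor alpha) was at 2.62, 3.01 and 3.07 CPM in MUT, against 2.67, 2.91 and 2.13 CPM in WT. The groups overlapped, and the log2 fold change was 0.17 (SE 0.15, 95% interval -0.18 to 0.52). HBEGF, the heparin-binding member, was the scarcest, at 0.453, 0.483 and 0.486 CPM in MUT, against 0.377, 0.388 and 0.370 CPM in WT. All 3 MUT values of HBEGF lay above the WT values, but they rest on 34, 47 and 29 counts in MUT and 26, 29 and 16 in WT. Counting error alone gives such counts a coefficient of variation of 16.5% in MUT and 20.6% in WT, wider than the observed 3.86% and 2.31%. The log2 fold change of HBEGF was 0.32 (SE 0.28), with a 95% interval from -0.32 to 0.96, so a difference was not detectable at this depth. AREG and HBEGF were the 2 of 10 members whose groups did not overlap, against 26.1% of all tested genes.

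Per transcript length, on the deposited TPM scale, AREG had the highest level of the 10 genes. It was at 7.07, 17.21 and 7.95 TPM in MUT and at 3.53, 4.97 and 2.31 TPM in WT. EREG followed at 1.62, 2.61 and 1.59 TPM in MUT and 1.40, 1.56 and 0.87 TPM in WT. These TPM values were not scaled further between libraries. On log2(TPM + 1) the median log2 fold change of the tested genes was 0.365, so TPM differences between the groups include this shift. The TPM values are read here for the order of genes within each library. The abundant 7SL, 7SK, RPPH1 and RMRP RNAs held 62.7% to 83.97% of counts per library, so a low TPM here does not show an absent mRNA. AREG exceeded EREG, EREG exceeded DUSP6 and DUSP6 exceeded SPRY4 in 6 of 6 libraries, although AREG counts were below EREG counts in WT, since counts do not allow for length. The mean levels over all 6 libraries were 0.668 TPM for DUSP6, 0.492 for SPRY4, 0.323 for ERBB3, 0.265 for ERBB2, 0.203 for TGFA, 0.177 for EGFR, 0.102 for SPRED1 and 0.055 for HBEGF. ERBB3 exceeded ERBB2 in 3 libraries, and TGFA exceeded EGFR in 4, so these neighbours in the order were not separated by their spread. AREG supplied 79.4%, 84.7% and 81.0% of the summed TPM of the 4 ligands in MUT, against 69.2%, 73.1% and 70.0% in WT.

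**Figure D2:**
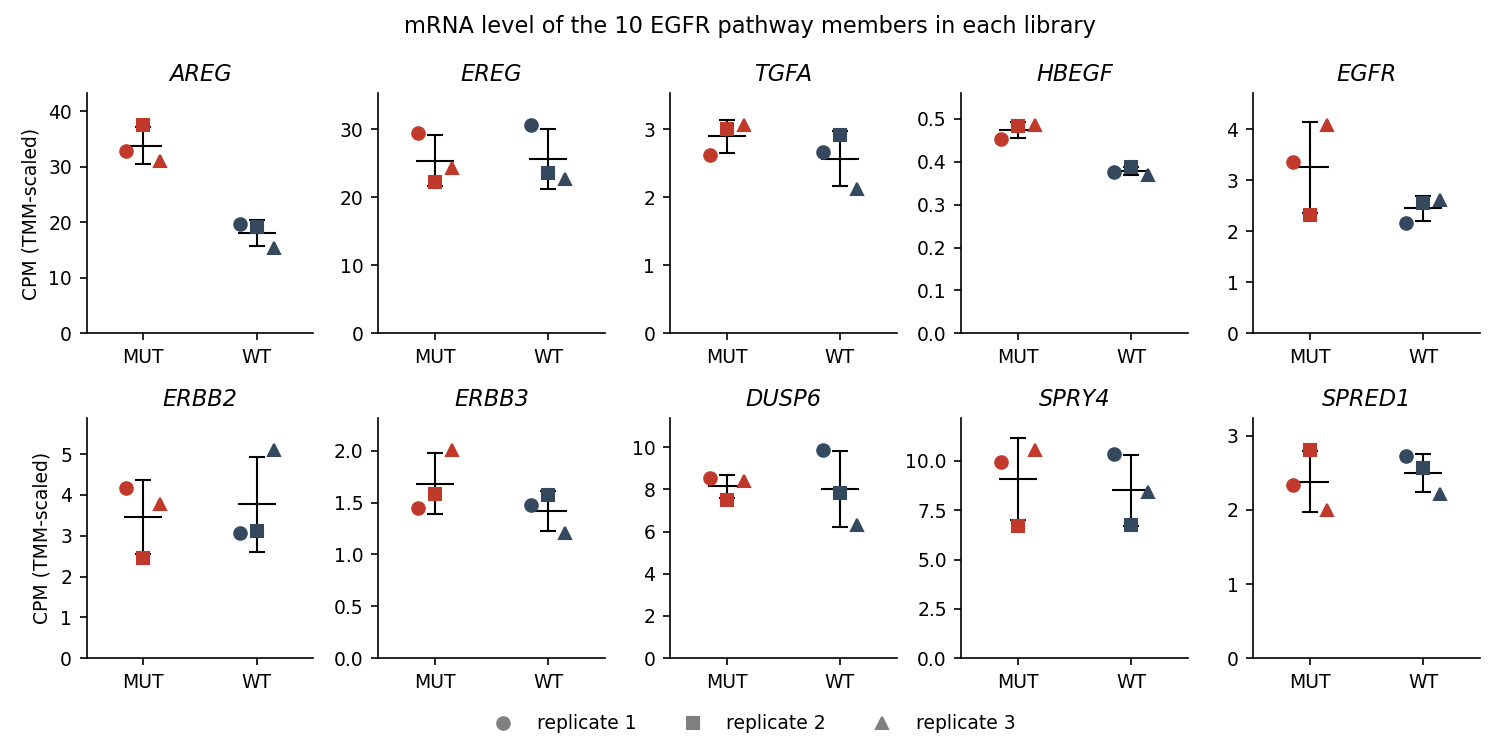
Level of each of the 10 genes in CPM of the TMM-scaled library (vertical axes from 0, a separate scale per gene), MUT left and WT right in each panel; points are libraries marked by replicate, the horizontal mark is the mean and the bar its SD (n = 3 each). AREG, at 31.0 to 37.5 CPM in MUT and 15.4 to 19.8 CPM in WT, and the scarce HBEGF show no overlap, while the other 8 genes overlap.

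Among the receptors, EGFR was at 3.36, 2.32 and 4.09 CPM in MUT, against 2.17, 2.57 and 2.61 CPM in WT. MUT replicate 2 fell within the WT range, and the other MUT libraries lay above it. The log2 fold change was 0.40 (SE 0.21, 95% interval -0.06 to 0.87, edgeR adjusted p = 0.325). Without MUT replicate 2 it was 0.62 (adjusted p = 0.072), and without MUT replicate 3 it was 0.21 (adjusted p = 0.684). The part of the higher ribosomal RNA share and the lower abundant RNA share of MUT replicate 2 in its EGFR level was not tested.

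ERBB2 was at 4.18, 2.44 and 3.77 CPM in MUT, against 3.07, 3.13 and 5.11 CPM in WT. The lowest value was that of MUT replicate 2 and the highest that of WT replicate 3, and the groups overlapped. The log2 fold change was -0.12 (SE 0.25, 95% interval -0.68 to 0.45), and its sign turned without MUT replicate 2 (0.12) and without WT replicate 3 (0.17). ERBB2 overlaps MIEN1 in RefSeq, which had 20237 counts, against 1444 for ERBB2. The strand setting of the counting is not given in the sources used here, so reads in the overlap cannot be told apart; MIEN1 itself had a log2 fold change of 0.00 (SE 0.13).

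ERBB3 was at 1.45, 1.58 and 2.01 CPM in MUT, against 1.48, 1.58 and 1.203 CPM in WT. The groups overlapped, and MUT replicate 3 was the highest. The log2 fold change was 0.23 (SE 0.20, 95% interval -0.21 to 0.68). Summed over the 3 receptors, the level was 8.99, 6.35 and 9.87 CPM in MUT and 6.72, 7.27 and 8.93 CPM in WT, which also overlapped.

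The feedback genes had nearly equal group means. DUSP6, the ERK phosphatase, was at 8.52, 7.51 and 8.41 CPM in MUT, against 9.89, 7.82 and 6.32 CPM in WT. The 3 MUT values lay inside the WT range, and the log2 fold change was 0.02 (SE 0.16, 95% interval -0.35 to 0.39). SPRY4, a Sprouty inhibitor of RAS and RAF activation, was at 9.96, 6.69 and 10.6 CPM in MUT, against 10.3, 6.75 and 8.45 CPM in WT, with replicate 2 the lowest of each group. Its log2 fold change was 0.09 (SE 0.21, 95% interval -0.37 to 0.56), or 0.46 without both MUT replicate 2 and WT replicate 1.

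SPRED1, which brings neurofibromin to the membrane to switch RAS off, was at 2.33, 2.81 and 1.99 CPM in MUT, against 2.72, 2.57 and 2.22 CPM in WT. The highest and the lowest of the 6 values were both in MUT, and the log2 fold change was -0.07 (SE 0.17, 95% interval -0.45 to 0.31). The summed level of the 3 feedback genes was 20.8, 17.0 and 21.0 CPM in MUT and 22.9, 17.1 and 17.0 CPM in WT. With 1 library left out the log2 fold changes ran from -0.11 to 0.22 for DUSP6, from -0.03 to 0.29 for SPRY4 and from -0.20 to 0.04 for SPRED1, on both sides of 0. The difference between the fold change of AREG and those of the other members was not tested, since the members were chosen from this comparison.

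**Figure D3:**
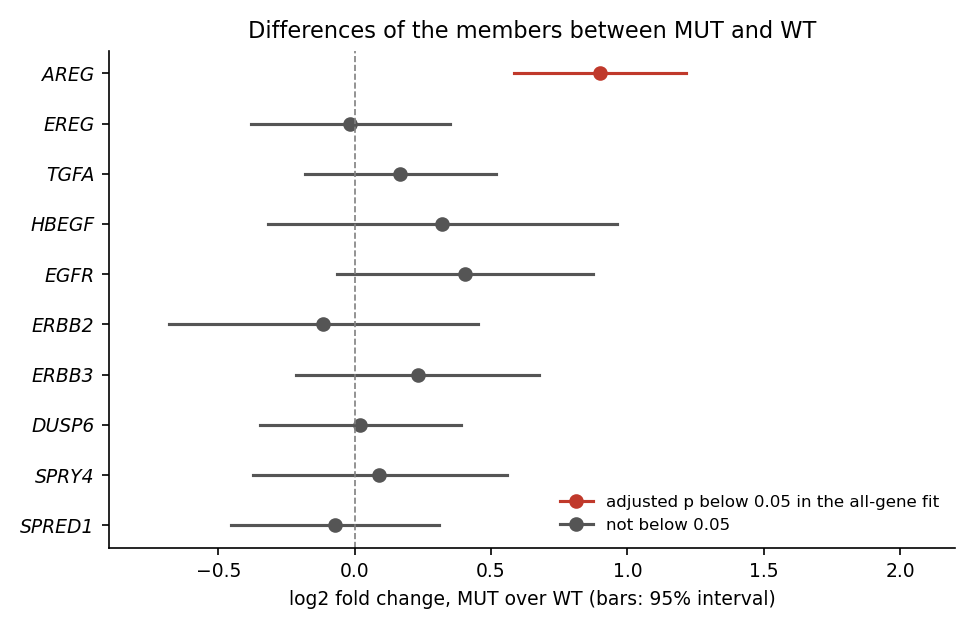
Log2 fold change of each member, MUT over WT, from the fit across all genes (points) with 95% intervals (bars); red marks an adjusted p below 0.05. AREG lies at 0.90, and the intervals of the other 9 genes include 0.

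Outside the 10 members, 82 further genes of the pathway were examined in 6 lists, and 76 of them passed the low-count filter. Of those 76, 2 rose and 0 fell, or 2.63%, beside 1.91% of all tested genes. At an unadjusted p below 0.05 there were 15 of 76, or 19.7%, beside 19.6% of all tested genes. The median log2 fold change of the 76 was -0.01, as was that of all tested genes. The 2 that rose were ARAF and CCND1.

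Of the other ligands and ERBB4, 4 of 8 passed the filter (BTC, NRG1, NRG2 and NRG4) and 0 of these were called, with 2 at an unadjusted p below 0.05. EGF, EPGN, NRG3 and ERBB4 were each at or below 0.147 CPM in every library. NRG1, a neuregulin that binds ERBB3, was at 0.946, 1.18 and 1.01 CPM in MUT, against 1.419, 1.54 and 1.53 CPM in WT. Its MUT values all lay below its WT values, but it did not pass the test (log2 fold change -0.51, SE 0.18, edgeR adjusted p = 0.164). NRG2 had a log2 fold change of 0.81 (SE 0.45) on 6 to 33 counts per library.

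In the list of ligand shedding, 8 of 9 genes were tested and 0 were called, also at an unadjusted p below 0.05, with a median log2 fold change of -0.01. ADAM15 and ADAM9, the most abundant of its metalloproteases per length, had values of -0.08 (SE 0.14) and 0.16 (SE 0.13).

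Of 21 adaptors and kinases from GRB2 to ERK, all of them tested, 1 rose and 0 fell, with 4 at an unadjusted p below 0.05 and a median log2 fold change of 0.00. ARAF, a RAF kinase that phosphorylates MEK, was at 10.4, 9.04 and 10.4 CPM in MUT, against 6.502, 6.07 and 4.95 CPM in WT. The groups did not overlap, and the log2 fold change was 0.76 (SE 0.13, edgeR adjusted p = 0.0284). MAP2K2, which encodes the kinase MEK2 and was the most abundant per length, had a value of -0.13 (SE 0.14), and HRAS one of 0.19 (SE 0.12).

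Of 17 other ERK feedback and target genes 16 were tested; 1 rose and 0 fell, with 3 at an unadjusted p below 0.05 and a median of 0.08. CCND1, the cell cycle gene of cyclin D1 that Wnt signalling also induces, was at 47.8, 42.0 and 53.0 CPM in MUT, against 31.1, 25.8 and 24.2 CPM in WT. The groups did not overlap, and the log2 fold change was 0.82 (SE 0.15, edgeR adjusted p = 0.0303). FOSL1, a subunit of the AP-1 transcription factor, was at 35.7, 23.4 and 36.2 CPM in MUT, against 25.5, 18.3 and 15.7 CPM in WT. MUT replicate 2 was below WT replicate 1, and FOSL1 did not pass (log2 fold change 0.68, SE 0.22, adjusted p = 0.139), though it did without MUT replicate 2 (0.88, adjusted p = 0.0306) and in DESeq2's test (0.69, adjusted p = 0.0213). IER3, an early response gene and the most abundant of the list, had a value of -0.04 (SE 0.21).

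ARAF and CCND1, like AREG, lost their call when any 1 library other than MUT replicate 2 was left out, with edgeR adjusted p-values from 0.0923 to 0.115 for ARAF and from 0.0956 to 0.135 for CCND1.

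In the list of receptor turnover (16 genes, all tested) 0 were called and 3 had an unadjusted p below 0.05; the median was -0.06. ERRFI1, an inhibitor that binds the EGFR kinase and is itself induced by EGF, was at 38.3, 40.3 and 40.3 CPM in MUT, against 56.4, 42.9 and 40.4 CPM in WT. Its MUT values lay just below the WT range, where WT replicate 1 was far above the others, and it did not pass (log2 fold change -0.23, SE 0.15, edgeR adjusted p = 0.436). RAB7A, a GTPase of late endosomes, had a value of -0.01 (SE 0.11).

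Of 11 other receptor tyrosine kinases 0 were called and 3 had an unadjusted p below 0.05; the median was -0.23. MET, the receptor of hepatocyte growth factor, was at 12.1, 8.99 and 10.3 CPM in MUT, against 17.3, 13.3 and 16.7 CPM in WT, without overlap. It did not pass edgeR's test (log2 fold change -0.59, SE 0.16, adjusted p = 0.0892) but did in DESeq2's (-0.57, adjusted p = 0.0207). The collagen receptor DDR1 was at 5.57, 5.38 and 5.70 CPM in MUT, against 4.17, 3.62 and 4.26 CPM in WT, and did not pass either (0.47, SE 0.11, adjusted p = 0.0666).

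**Figure D4:**
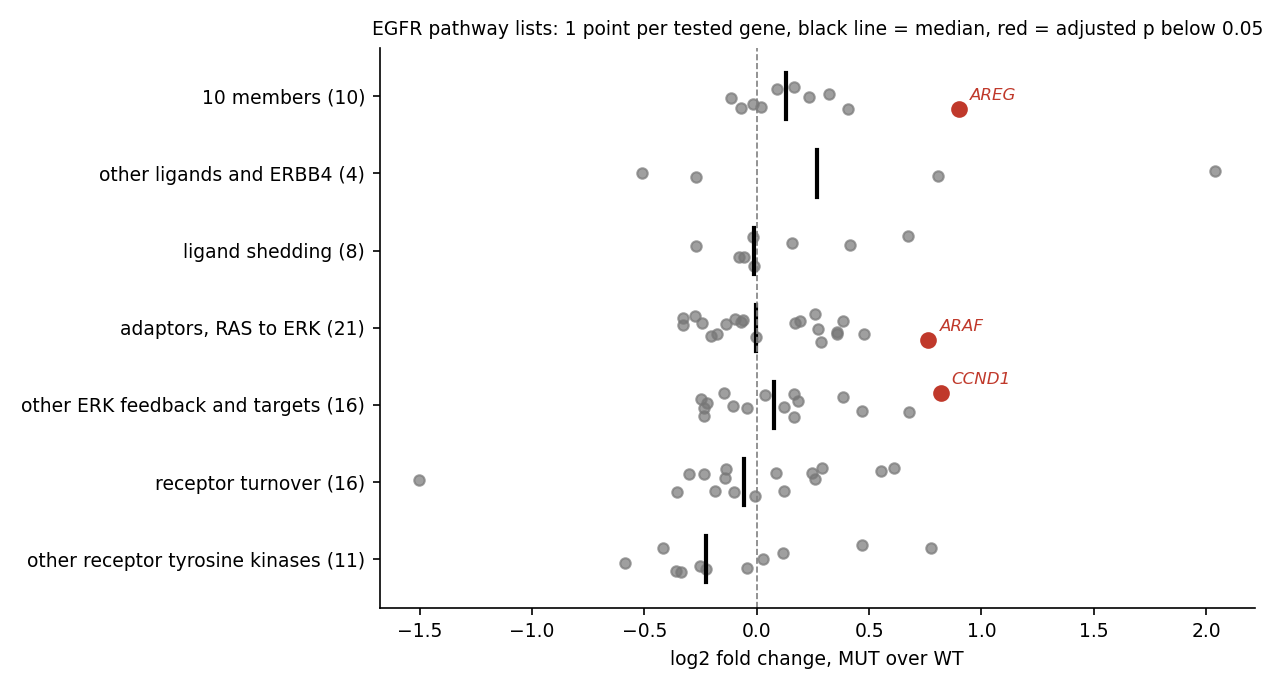
Log2 fold change, MUT over WT, of the 10 members and of the tested genes of 6 further pathway lists (1 point per gene, number of genes in brackets, black line for the median, vertical scatter only for legibility). AREG, ARAF and CCND1, in red, passed an adjusted p of 0.05, and the list medians run from -0.23 to 0.27.

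Around AREG and EREG, 10 genes within 500 kb on either side were tested, these 2 included. AREG was the 1 that was called. CXCL1, a chemokine, was at 0.639, 0.575 and 0.536 CPM in MUT, against 0.319, 0.307 and 0.255 CPM in WT, without overlap, but did not pass (log2 fold change 0.98, SE 0.29, edgeR adjusted p = 0.116). The lncRNA LOC107986229, beyond AREG, was lower in MUT without overlap but did not pass (-1.999, SE 0.59, edgeR adjusted p = 0.111) on 62 counts in all. It was at 0.0533, 0.103 and 0.0168 CPM in MUT, against 0.174, 0.307 and 0.278 CPM in WT. It could pass the low-count filter only with the WT libraries, where it was high, which favours groups that do not overlap. Its value was -2.71 without MUT replicate 2 (adjusted p = 0.0844) and -2.92 without both MUT replicate 2 and WT replicate 1 (adjusted p = 0.0774). The remaining tested genes, CXCL2, CXCL3, MTHFD2L, LOC105377276, PARM1 and the ligand BTC, had log2 fold changes between -0.29 and 0.79 and overlapping groups. The highest of these, CXCL2, was at 1.93 without WT replicate 1 (edgeR adjusted p = 0.181) and at 2.13 without both MUT replicate 2 and WT replicate 1 (adjusted p = 0.0844), on 130 counts in all.

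The 3 tested genes whose centred log2 profiles over the 6 libraries lay closest to AREG were NSFL1C, SDF4 and UBE2V1, at root mean square distances of 0.09, 0.10 and 0.11 log2 units, where the median over 4534 genes was 0.50. For EGFR, the member with the next largest fold change, they were CSNK1E, HSPBP1 and EPHA2, at 0.085, 0.11 and 0.12, with a median of 0.35 over 4535 genes. EPHA2, a receptor of ephrins, was at 12.3, 8.02 and 13.7 CPM in MUT and at 8.20, 7.42 and 8.96 CPM in WT. Its MUT replicate 2 lay within the WT range, as did that of EGFR. All these genes were picked as the nearest profiles over these same 6 libraries. Their likeness to AREG or EGFR follows from that choice and is no support for a link.

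**Figure D5:**
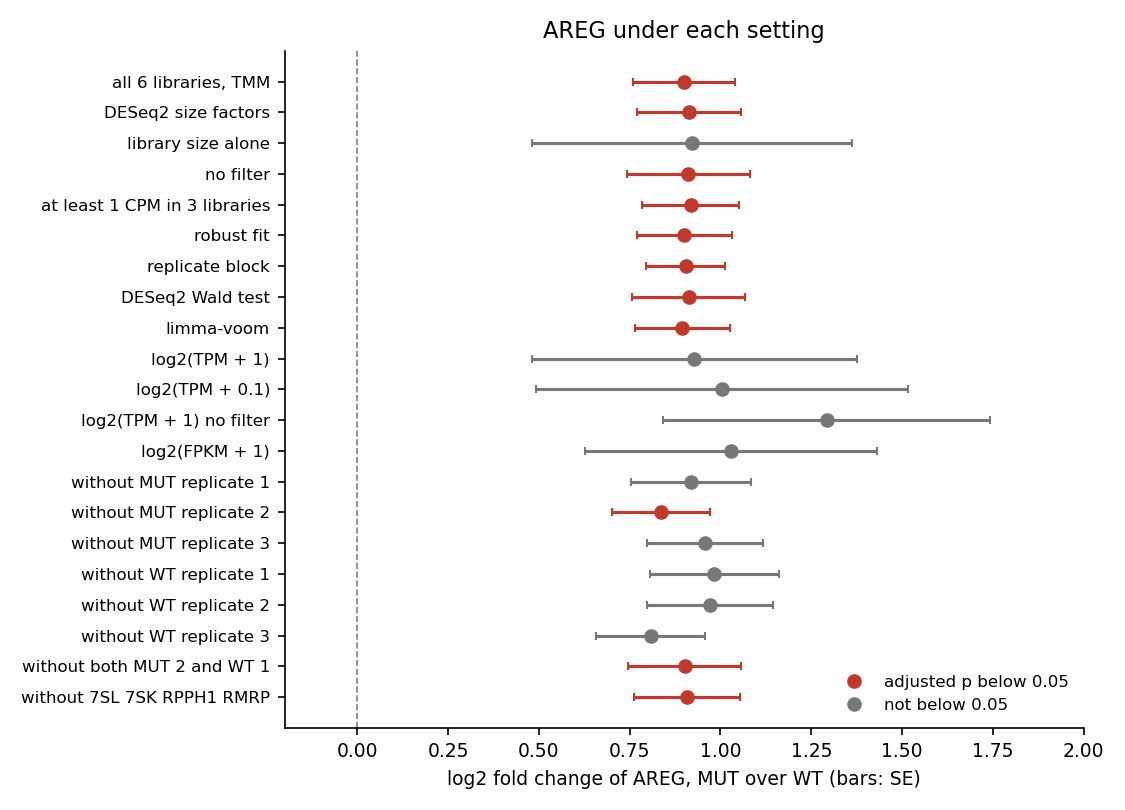
Log2 fold change of AREG, MUT over WT, under each setting (points) with its SE (bars), relative to the median of all genes where that median was above 0.1. Red marks an adjusted p below 0.05. Where a value is relative to the median, its SE and adjusted p are those of the fold change before that shift. The values lie between 0.81 and 1.03, except 1.29 on unfiltered log2(TPM + 1), where the median was 0.025 and the value is not centred (0.93 relative to the median with the filter); 10 of the 20 alternatives keep the adjusted p below 0.05.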

How the data were processed

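RNA of 3 MUT and 3 WT samples was measured. The submitters' processing notes list, with no role for any, the build hg38 (GRCh38) and the tools RSEM 1.2.28, STAR 2.5.2b, DESeq2 1.42.0 and FastQC 0.12.1. The authors deposited expected counts per gene symbol (all whole, so rounding changed none), FPKM and TPM; the deposited FPKM and TPM, normalized by the authors for depth and length, served for levels per length and for alternatives.

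Counts were fitted in R 4.3.3 with edgeR 4.0.16 (filterByExpr with a minimum count of 10 and a total of 15, TMM, quasi-likelihood F-test, Benjamini-Hochberg over all tested genes, no covariate); limma 3.58.1 and DESeq2 1.42.0 gave alternatives. An SE is the absolute log2 fold change over the root of its F statistic. Figures were drawn with matplotlib 3.10.9.

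The members and lists were chosen with earlier results of these data known. Named genes are the members, in each list the called genes and the 2 with the highest TPM, tested genes within 500 kb of AREG or EREG, the nearest profiles (average log2 CPM of at least 2, pseudocount 0.5) and EIF6. Gene coordinates and promoters are RefSeq, GRCh38.p14; all 109 listed symbols matched a row.

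In simulated counts for this comparison, 85.7% of changed genes with a 4-fold change, 27.3% with a 2-fold change and 4.55% with a 1.5-fold change were called among 14491 genes. The changed genes were drawn at random from all tested genes, so these shares are averages and do not carry over to single members. Small changes could be missed, and the SE and interval of each member give its own precision. Depths are given with the report; intervals cover the spread between libraries.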

Additional observations from a re-analysis of the deposited data

How the results depend on the processing

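AREG stayed higher in MUT under all 20 alternatives and was called in 10, with adjusted p-values from 1.12e-06 to 0.569. The median log2 fold change of all genes was 0.54 by library size alone, 0.36 on log2(TPM + 1), 0.49 on log2(TPM + 0.1) and 0.33 on log2(FPKM + 1), and gene values are given relative to it. The p-values and calls in these 4 settings are those of the fold changes before that shift. For AREG by library size alone, the fold change before the shift was 1.456 and after it 0.921. Calls over all genes, which were 283 of 14808 tested (1.91%), numbered 108 of 14808 by library size alone (0.729%). With no filter they were 1195 of 29369 (4.07%), and with at least 1 CPM 462 of 9922 (4.66%). A robust fit called 552 of 14808 (3.73%) and DESeq2's test 760 of 14808 (5.13%). The log2(TPM + 1) scale called 21 of 2853 (0.736%), log2(TPM + 0.1) 10 of 2853 (0.351%) and log2(FPKM + 1) 13 of 6231 (0.209%). Unfiltered log2(TPM + 1) called 1 of 24385 (0.0041%). With 1 library left out the calls over all genes ranged from 27 to 442. Called members numbered 0 of 10 by library size alone, and 0 to 1 with 1 library left out. On log2(TPM + 1) and log2(TPM + 0.1) only 2 members passed the filter and 0 were called. On log2(FPKM + 1) 0 of 5 tested members were called, and on unfiltered log2(TPM + 1) 0 of 10. Called pathway genes (2 of 76 tested) numbered 0 of 76 by library size alone. They numbered 0 of 16 tested on log2(TPM + 1) and log2(TPM + 0.1). On log2(FPKM + 1) they were 0 of 37, and on unfiltered log2(TPM + 1) 0 of 78. With no filter 6 of 81 were called, with at least 1 CPM 4 of 61, with a robust fit 4 and in DESeq2's test 5. Without both MUT replicate 2 and WT replicate 1 there were 5, and with 1 library left out 0 to 5. Those added were among FOSL1, MET, DDR1, EPHA2 and, named after their values were seen, AXL and SH3KBP1. With the replicate number as a block, 296 genes, 1 member and 4 pathway genes were called. Same-numbered libraries had correlations of deviations of -0.291, -0.041 and 0.219, which show no common pairing by number but cannot exclude one. With the block the SE rose for HBEGF (0.282 to 0.304) and ERBB3 (0.196 to 0.21). It fell for the other members, such as SPRY4 (0.206 to 0.114) and EREG (0.161 to 0.102).

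Signs turned for uncalled genes, whose ranges with 1 library left out were -0.179 to 0.12 for IER3, -0.165 to 0.036 for ADAM15, -0.08 to 0.048 for RAB7A, -0.528 to 0.015 for LOC105377276 and -0.045 to 0.984 for CXCL3. Without both MUT replicate 2 and WT replicate 1, IER3 was at 0.253 and RAB7A at 0.07. On log2(TPM + 1), IER3 was at 0.195 and MAP2K2 at 0.082. On log2(TPM + 0.1), ADAM15 was at 0.013, and IER3 and RAB7A at 0.077 each. On log2(FPKM + 1), IER3 was at 0.143, ADAM15 at 0.035, MAP2K2 at 0.055 and RAB7A at 0.098. On unfiltered log2(TPM + 1) the median was 0.025, so the shift of tested genes stayed in the values: 0.56 for IER3, 0.292 for ADAM15, 0.447 for MAP2K2, 0.363 for RAB7A, 0.011 for NRG1, 0.205 for ERRFI1, 0.215 for MTHFD2L, 0.073 for LOC105377276 and 0.009 for BTC. Relative to the median with the filter, ADAM15 (-0.073), RAB7A (-0.001), ERRFI1 (-0.16) and MTHFD2L (-0.15) did not turn. RAB7A was at 0.001 with no filter, 0.008 with at least 1 CPM, 0.003 in DESeq2's test and 0.004 with its size factors, where the median of all genes moved alike, to -0.002, 0.01, 0.001 and 0.002. The cause of the other turns was not tested.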

Other observations

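The 3 pathway genes NRG4, LRIG1 and AXL, outside the rule for named genes, were picked after their values were seen. NRG4, a neuregulin that binds ERBB4, had 15, 28 and 15 counts in MUT, against 7, 2 and 2 in WT, and did not pass edgeR's test (log2 fold change 2.04, SE 0.55, adjusted p = 0.0942). LRIG1, a membrane protein that promotes loss of ERBB receptors, had 8, 8 and 4 counts in MUT, against 16, 19 and 11 in WT (log2 fold change -1.50, SE 0.43, adjusted p = 0.104). The receptor kinase AXL was at 5.25, 3.46 and 4.79 CPM in MUT, against 2.55, 2.29 and 3.08 CPM in WT (0.78, SE 0.18, adjusted p = 0.0663). The groups did not overlap for any of these 3 genes, where 26.1% of all tested genes did not overlap. Since the 3 genes were picked by their values, that comparison is no support for a difference. NRG4 exceeded the minimum count of 10 only in MUT and LRIG1 only in WT, the groups where they were high. A filter passed in this way favours groups that do not overlap.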
